A study of Oryza sativa with 8 samples.

Results

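The Root libraries are the 4 of 8 RNA-seq libraries of rice roots whose column names carry the word Root, and they compare plants that overexpress the transcription factor gene OsERF48 with nontransgenic (NT) plants. Of the 37869 genes in the deposited table, the 25090 with a mean of at least 0.5 FPKM over these 4 libraries were tested and are described here by family and function. FPKM is the number of sequenced fragments assigned to a gene, divided by its length and by the depth of the library. In ROX OsERF48 plants (ROX), the gene was expressed from the promoter of RCc3, a gene of the root, in the cultivar Ilmi, and 2 libraries were ROX and 2 were NT plants of the same cultivar. Each transgenic line descends from 1 transformation event. The samples are labelled as lines 2 and 6, but the column names give no line, so the lines could not be compared. All plants were germinated on Murashige and Skoog medium for 4 days at 28 °C, then raised in a greenhouse in soil pots of 3 plants, and roots were taken at 2 weeks under normal growth conditions. No stress was applied to either group. The other 4 libraries carry the word Set instead, are called the Set libraries, hold 2 ROX and 2 NT libraries and serve only for comparison. Their names carry set 1 or set 2, each with 1 ERF48 and 1 WT library, but neither promoter, cultivar nor tissue. What set 1 and set 2 stand for is not given. Set values below are given in that order within a group, and the fits did not pair libraries by this number. Whether the Root or the Set libraries came from 1 line is not given, so line and library set cannot be told apart. The study describes 2 technical replicates for each biological replicate, and the p-values below measure only the spread between libraries, which may be technical. An exact permutation test of 2 libraries against 2 cannot go below p = 0.333, so calls rest on a model fitted across all genes.

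OsERF48 belongs to the AP2/ERF family, plant transcription factors that bind short motifs in the promoters of genes responsive to ethylene, drought, cold and wounding. DREB factors of this family bind the dehydration-responsive element, while ERF factors bind the GCC box of many defence genes. Roots meet drying soil first, and their responses are known to pass through calcium sensors, jasmonate, ethylene and abscisic acid, and to end in protective proteins, compatible sugars, water channels and changes of the cell wall.

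Depth, estimated from the steps in the low FPKM values, was 37.5 and 41.8 M fragments (M for a factor of 1e6) in the NT pair and 37.4 and 43.4 M in the ROX pair. The log2 values of the libraries of a pair correlated across genes with r = 0.997 for NT and 0.996 for ROX, and the mean chi-square per gene against sampling noise, which is 1 for noise alone, was 1.29 and 2.49. It was 16.6 and 20.6 in the Set pairs, so the Root pairs lay much nearer to sampling noise. Each Set pair holds a library of set 1 and one of set 2, so its value includes any difference between them. Each library was counted, but an excess over 1 does not show that the libraries of a pair are independent. Of 7 genes taken as root markers, 3 were above 100 FPKM in every Root library and the others reached at most 25.5 FPKM. Os02g0745100, a silicon influx transporter of the root, stood at 1304 and 1289 FPKM in the NT libraries and 993 and 1048 in the ROX libraries, and the silicon efflux transporter Os03g0107300 at 386 and 375 FPKM in the NT libraries and 307 and 322 in the ROX libraries. RCc3 itself (Os02g0662000), whose promoter drives the transgene, stood at 321 and 307 FPKM in the NT libraries and 152 and 161 in the ROX libraries, a log2 change of -0.998 that just missed the 2-fold limit, and at 1236 and 1608 FPKM in Set NT and 1581 and 1540.2 in Set ROX. The RCc3-like gene Os04g0554500, added to the markers after its values were seen, reached at most 0.368 FPKM in the Root libraries but 278 and 344 FPKM in Set NT and 309 and 240.2 in Set ROX. The Root libraries held some root transcripts at a high level and others close to 0. The 76 photosynthesis genes, markers of shoot, summed to 208 and 208 FPKM in NT and 136 and 137 in ROX, with 7 of the 40 tested members called lower. In bulk RNA fewer cells of a type and less RNA per cell cannot be told apart, and the part of these differences in the results below was not tested.

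OsERF48 (Os08g0408500; chromosome 8, 19547328 to 19548978) was higher in both ROX libraries. It stood at 86.6 and 86.2 FPKM in the NT libraries and 464 and 469.6 in the ROX libraries, 5.40 times the NT mean, with a log2 change of 2.42 (SE 0.03, limma adjusted p = 3.94e-08). The 2 groups did not overlap, and the values within each pair were close. In the Set libraries the gene stood at 65.9 and 59.3 FPKM in Set NT and 816 and 612 in Set ROX.

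Across the Root comparison many more genes rose than fell. A gene was called when it differed at least 2-fold on log2(FPKM + 1) with an adjusted p under 0.05 from limma, a linear model with moderated variances. The added 1 makes the change of genes below a few FPKM look smaller than it is. By this rule 1061 of 25090 genes were higher in ROX, which is 4.23% of those tested, and 244 were lower, which is 0.972%. The median log2 change of all tested genes was -0.08, so values near it mark no change relative to the bulk. Of the higher genes, 264 rose at least 4-fold and 72 at least 8-fold, against 13 and 2 among the lower genes. The median absolute log2 change was 1.47 for the higher and 1.2 for the lower genes, and the median level over the 4 libraries was 12.6 and 5.64 FPKM. Of the study's candidate and network lists, 127 loci in all, 89 were among the higher genes and none among the lower, so that 972 of the higher genes were on no list. Those lists were chosen partly on these samples, so their direction is not independent evidence. At a smaller size the fit also gave an adjusted p under 0.05 to 4152 genes that were higher and 7778 that were lower by less than 2-fold.

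**Figure D1:**
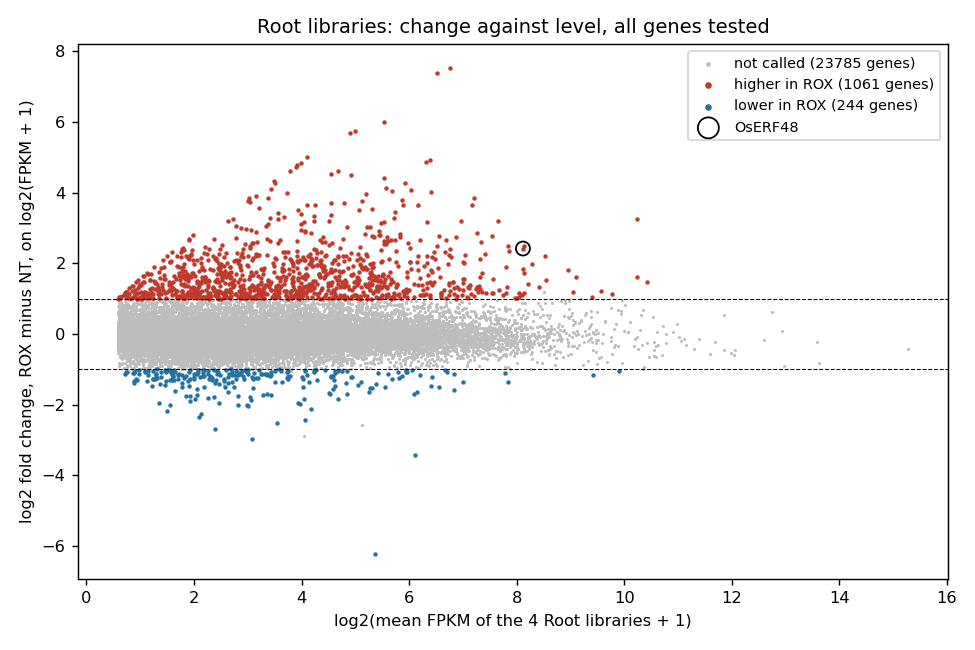
Log2 change (ROX minus NT, on log2(FPKM + 1)) of every tested gene against its mean level in the 4 Root libraries, with the 2-fold limits as dashed lines and OsERF48 circled. The 1061 higher genes reach further from 0 than the 244 lower ones, and they lie at all levels of expression.

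Called genes lay on all 12 chromosomes. Some called genes were neighbours in the order of the tested genes: 385 of the 1061 higher genes (36.3%) lay next to another higher gene, and 34 of the 244 lower genes (13.9%) next to another lower one. The longer list has more neighbours for that reason alone, so the 2 shares cannot be compared. Tandem copies can share reads, so the level of a single copy is less certain than that of its cluster. Another gene overlapped 285 of the higher and 75 of the lower genes, and 30.02% of all tested genes.

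Among genes with a described function outside the study's lists, the largest rises were in genes that were close to silent in NT roots. Os11g0182900, described as an ankyrin repeat protein (chromosome 11, 4168279 to 4170029), went from 0.0393 and 0.0175 FPKM in NT to 31.0 and 33.4 in ROX, with a log2 change of 5.01 (SE 0.08, limma adjusted p = 5.7e-08). A RAP2.6-like AP2 gene, Os09g0457900 (chromosome 9, 17306100 to 17307199), was listed at 0 in one NT library and at 0.102 in the other, against 19.7 and 20.9 in ROX (log2 change 4.34, SE 0.09). The amino acid transporter Os01g0597600 (chromosome 1, 23447173 to 23448687) stood at 0.119 and 0.106 FPKM in the NT libraries and 19.3 and 21.9 in the ROX libraries (log2 change 4.28, SE 0.09). In all 3 the NT libraries were near the floor of detection and the ROX libraries close to each other.

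Other large rises started from a measurable level. The glycoside hydrolase family 18 gene Os05g0247800, of the family that holds chitinases (chromosome 5, 8959416 to 8960566), stood at 6.32 and 6.48 FPKM in the NT libraries and 123 and 124 in the ROX libraries (log2 change 4.07, SE 0.04). The neighbouring F-box genes Os09g0341600 and Os09g0341500, whose products select proteins for degradation, went from 4.81 and 4.85 to 94.5 and 96.3 FPKM and from 1.56 and 1.42 to 26.1 and 28.3 FPKM. A subtilisin-type peptidase, Os10g0451900, stood at 4.39 and 4.51 FPKM in the NT libraries and 59.3 and 61.7 in the ROX libraries (log2 change 3.50, SE 0.05). The groups of these genes lay far apart compared with the gap inside each pair, although separate groups were a condition of the choice. Among regulators, the MYB gene Os01g0298400 stood at 0.605 and 0.536 FPKM in the NT libraries and 23.4 and 24.7 in the ROX libraries (log2 change 4.00, SE 0.07). The C2H2 zinc finger gene Os03g0437200 stood at 3.34 and 3.47 FPKM in the NT libraries and 67.7 and 69.0 in the ROX libraries (log2 change 3.98, SE 0.05). In the Set libraries, of these 6 genes only Os05g0247800 and Os10g0451900 showed a ROX library above both NT libraries, and in each case the second ROX library was below them: Os05g0247800 stood at 2.34 and 0.875 FPKM in Set NT and 26.3 and 0.279 in Set ROX, and Os10g0451900 at 2.68 and 1.67 FPKM in Set NT and 4.94 and 1.34 in Set ROX.

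The largest fall of a gene with a described function was in an AP2 factor. Os03g0183200 (chromosome 3, 4367273 to 4368453) stood at 125 and 126 FPKM in the NT libraries and 10.7 and 10.8 in the ROX libraries, a fall to 0.0855 of the NT mean with a log2 change of -3.43 (SE 0.04, limma adjusted p = 2.97e-08). In the Set libraries it stood at 16.2 and 25.8 FPKM in Set NT and 24.6 and 32.0 in Set ROX, where the groups overlapped. Os10g0409400, similar to the beta subunit of a polygalacturonase, the enzyme that cuts pectin (chromosome 10, 14171332 to 14172873), stood at 14.3 and 13.8 FPKM in the NT libraries and 1.10 and 0.739 in the ROX libraries (log2 change -2.98, SE 0.10). A short-chain alcohol dehydrogenase-like gene, Os11g0443700 (chromosome 11, 14660801 to 14663959), stood at 18.8 and 18.8 FPKM in the NT libraries and 2.23 and 2.63 in the ROX libraries (log2 change -2.53, SE 0.08). Each of these genes had both ROX libraries well below both NT libraries, and separate groups were a condition of the choice.

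The BURP domain gene Os05g0217700 (chromosome 5, 7249980 to 7251356) was close to silent in ROX, at 3.57 and 3.74 FPKM in the NT libraries and 0.0292 and 0.0248 in the ROX libraries (log2 change -2.18, SE 0.09). It showed the same in the Set libraries, at 14.5 and 12.9 FPKM in Set NT and 0.0443 and 0.0459 in Set ROX. Os11g0194800, similar to a small shared subunit of RNA polymerase (RPB10), fell from 12.7 and 11.4 to 2.41 and 2.76 FPKM. Its Set values were 10.3 and 12.2 FPKM in Set NT and 0.728 and 0.468 in Set ROX, again with both ROX libraries far below NT. The glycolytic enzyme gene Os08g0120600 (fructose-bisphosphate aldolase) and the methyltransferase gene Os11g0260100 had log2 changes of -2.02 and -1.84. The remaining genes of this group were the cysteine protease gene Os09g0381400, the actin filament bundling protein gene Os04g0604000, the glycine-rich protein gene Os10g0452500, the class III peroxidase gene Os07g0639000 and the cytochrome P450 gene Os03g0417700, with log2 changes between -2.11 and -1.89. Another gene overlaps Os09g0381400, Os04g0604000 and Os03g0417700.

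**Figure D2:**
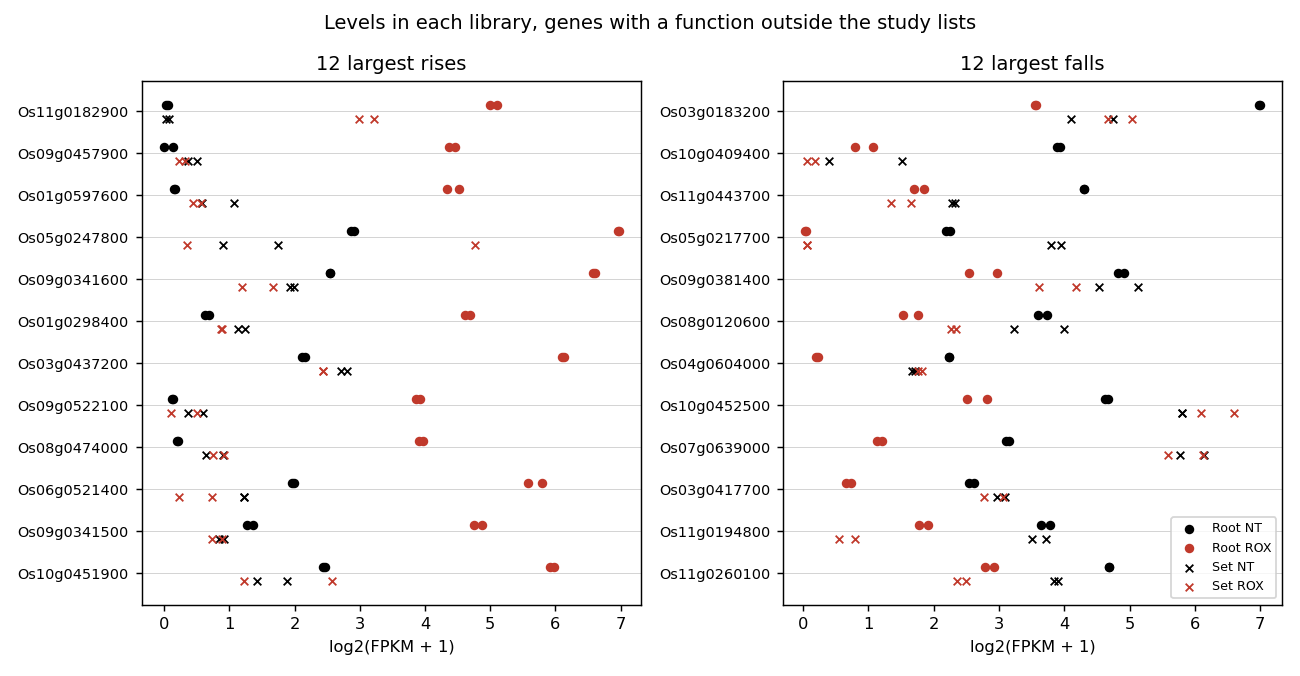
Level as log2(FPKM + 1) in each library for the 12 largest rises and the 12 largest falls outside the study's lists among genes with a described function. Circles are Root and crosses are Set libraries, black for NT and red for ROX. The genes were chosen for large changes with separate Root groups, so no ROX circle can reach an NT circle in the Root libraries. Most Set crosses of the rises, which did not enter the choice, lie together. Os11g0182900 among the rises and Os05g0217700 and Os11g0194800 among the falls are among those that separate in both sets.

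Among abundant transcripts, changes were closer to the 2-fold limit. The thionin-like gene Os07g0432201, of a class of small antimicrobial peptides and overlapped by another gene, was the most abundant of the higher genes by this rule, at 744 and 716 FPKM in the NT libraries and 2128 and 1910.2 in the ROX libraries (log2 change 1.46, SE 0.05). A related thionin-like gene on the same chromosome, Os07g0430501, stood at 96.9 and 157 FPKM in the NT libraries and 451 and 537 in the ROX libraries (log2 change 1.99, SE 0.20). Os11g0167800, similar to a desiccation-associated protein of pollen, stood at 559 and 539.8 FPKM in the NT libraries and 1183 and 1208 in the ROX libraries (log2 change 1.12, SE 0.03). These rises brought transcripts that were already high in NT to a higher level. The beta-1,3-glucanase gene Os01g0940800, the glycoside hydrolase family 28 gene Os06g0106800 and the Lea14-A-like gene Os05g0584200 had log2 changes of 1.04, 1.2 and 1.17. Without the second ROX library the glucanase gene had a log2 change of 0.99 and was no longer called.

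Of the abundant genes that fell, Os02g0586000, a quinonprotein alcohol dehydrogenase-like gene, stood at 1274 and 1285 FPKM in the NT libraries and 620.0 and 625 in the ROX libraries (log2 change -1.04, SE 0.03). Os01g0949800, a glutathione S-transferase gene, stood at 174 and 166 FPKM in the NT libraries and 55.2 and 57.9 in the ROX libraries (log2 change -1.57, SE 0.04). The flavanone 3-hydroxylase-like gene Os04g0581000, an enzyme of flavonoid synthesis, stood at 138 and 139 FPKM in the NT libraries and 47.2 and 48.7 in the ROX libraries (log2 change -1.51, SE 0.04). Their ROX values were all below NT, as the choice required, and nearly the same in both libraries. Os11g0444700, with a PB1-type (octicosapeptide) domain, Os01g0102900, a light-regulated Lir1 gene, and Os06g0271600, a RING finger gene, had log2 changes of -1.37, -1.11 and -1.02. With scaling by median ratios, Os02g0586000 and Os06g0271600 missed the 2-fold limit, and Os06g0271600 also did so without the first NT or the first ROX library.

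Genes were grouped by the words of their descriptions into 61 families, of which 30 are described with named members and 4 more by their counts. In 34 of the 61 the share of members that were higher exceeded the 4.23% of all genes, and in 8 no member was called. The counts are descriptive, because the members of a family can share reads and are not independent.

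**Figure D3:**
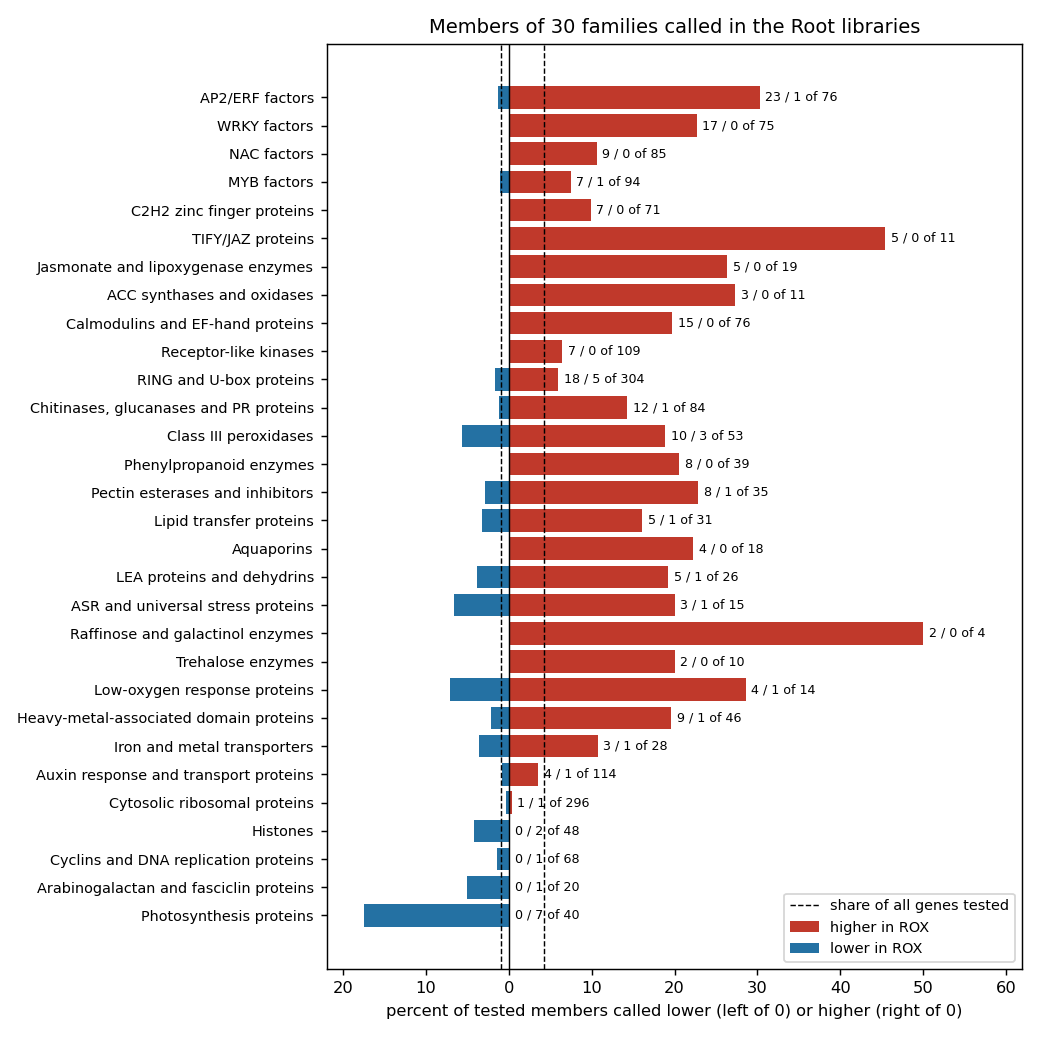
Percent of the tested members of 30 families that were called higher (red, right of 0) or lower (blue, left of 0) in ROX Root libraries, with counts (higher / lower of tested). Dashed lines mark the shares over all genes, 4.23% and 0.972%. The TIFY/JAZ and raffinose families have the longest red bars, on few members, and the photosynthesis genes the longest blue bar.

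Transcription factor families differed in the share of their tested members that was called. Of 76 tested AP2/ERF genes, 23 were higher, OsERF48 included, and 1 was lower, with a family median of 0.18 on the log2 scale. Of the 23, 12 were on the study's lists. The largest rises of the family, both on those lists, were in OsDREB1C (Os06g0127100) and a DREB1B-like gene (Os09g0522000): the former stood at 0.0902 and 0.0794 FPKM in the NT libraries and 25.7 and 29.7 in the ROX libraries (log2 change 4.72, SE 0.09), the latter at 0.892 and 1.11 FPKM in the NT libraries and 45.8 and 50.0 in the ROX libraries (log2 change 4.61, SE 0.08). DREB1 factors are known as switches of the cold and dehydration response. Counted after their values were seen, 7 of 8 tested genes described as DREB1 or CBF1 were higher. The median log2 change of the 8 was 2.58, against -0.16 in the Set libraries. Of 12 genes so described, only these 8 passed the limit on mean level, which was taken over NT and ROX together. A gene close to silent in NT could pass through its ROX level alone, as Os06g0127100 did. Members that were low in both groups were left out, so the share and the median are partly built in by this limit. Off the study's lists, the DREB1H-like gene Os09g0522100, beside Os09g0522000 on chromosome 9, stood at 0.0938 and 0.0826 FPKM in the NT libraries and 13.6 and 14.2 in the ROX libraries (log2 change 3.77, SE 0.08). The RAP2.6-like gene Os08g0474000 stood at 0.161 and 0.142 FPKM in the NT libraries and 14.0 and 14.7 in the ROX libraries (log2 change 3.74, SE 0.08), and the ERF4-like gene Os02g0764700, on the study's lists, at 0.180 and 0.159 FPKM in the NT libraries and 17.3 and 21.6 in the ROX libraries (log2 change 4.12, SE 0.11). In each of these genes both NT libraries were at or below about 1 FPKM.

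WRKY factors, which bind the W box of defence genes, had 17 of 75 tested members higher and none lower, and none of the 17 was on the study's lists. The family median was 0.36. WRKY42 (Os02g0462800) stood at 0.521 and 0.543 FPKM in the NT libraries and 6.23 and 6.82 in the ROX libraries (log2 change 2.30, SE 0.09). WRKY24 (Os01g0826400) stood at 13.0 and 11.6 FPKM in the NT libraries and 60.2 and 60.5 in the ROX libraries (log2 change 2.21, SE 0.06). A further WRKY gene, Os02g0181300, stood at 52.2 and 46.4 FPKM in the NT libraries and 206 and 207 in the ROX libraries (log2 change 2.05, SE 0.06). The ROX libraries of all 3 were far above NT, while in the Set libraries WRKY24 was lower in ROX (11.4 and 9.75 FPKM in Set NT and 5.79 and 6.86 in Set ROX), and the family median there was -0.14.

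NAC factors, several of which are known in rice for roles in drought and salt responses, had 9 of 85 tested members higher, none lower and a median of 0.12. OsNAC3 (Os07g0225300) stood at 5.13 and 4.40 FPKM in the NT libraries and 21.8 and 21.9 in the ROX libraries (log2 change 1.99, SE 0.07), and the NAC14-like gene Os03g0133000 at 5.48 and 5.01 FPKM in the NT libraries and 24.3 and 27.1 in the ROX libraries (log2 change 2.10, SE 0.07). MYB factors had 7 of 94 tested members (7.45%) higher and 1 lower, with a median of -0.02. Besides Os01g0298400, the MYB305-like gene Os02g0618400 rose, from 1.23 and 1.78 to 12.8 and 13.1 FPKM. C2H2 zinc finger genes had 7 of 71 tested members higher and none lower, although the family median was -0.10. The network genes Os03g0820400 and Os03g0820300, similar to ZPT2-13 and ZPT2-14, a type of C2H2 repressor that responds to stress, had log2 changes of 3.64 and 2.17. Os03g0437100 had the same value as Os11g0340477 in every Root library, so these 2 of the 7 carry 1 measurement. Among bZIP factors, a family that holds the main abscisic acid regulators, 0 of 37 tested members were called in either direction by limma. Over all genes 4.23% were higher and 0.972% lower, so few calls among 37 members would match those shares, and 0 is near them.

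Jasmonate is a fatty acid hormone of wounding and defence, and TIFY/JAZ proteins repress its targets and are themselves induced by it. All 11 tested TIFY/JAZ genes had a log2 change above 0, 5 were higher by the call, and the family median was 0.92. Os03g0181100, on the study's lists, stood at 6.62 and 7.0 FPKM in the NT libraries and 102 and 114 in the ROX libraries (log2 change 3.80, SE 0.06). Os10g0391400, a network neighbour, stood at 0.407 and 0.467 FPKM in the NT libraries and 15.0 and 17.3 in the ROX libraries (log2 change 3.57, SE 0.09). Os03g0180900, on no list, stood at 15.4 and 14.6 FPKM in the NT libraries and 63.1 and 64.2 in the ROX libraries (log2 change 2.02, SE 0.05). The groups were apart in each, and the Set median of the family was -0.02. Enzymes that make jasmonate and other oxylipins had 5 of 19 tested members higher and none lower. Among them were a pair of allene oxide synthase genes, of the first step committed to jasmonate: Os03g0767000 stood at 3.62 and 3.59 FPKM in the NT libraries and 13.0 and 14.7 in the ROX libraries and Os03g0225900 at 20.9 and 20.6 FPKM in the NT libraries and 54.3 and 57.3 in the ROX libraries. The lipoxygenase genes Os10g0361900 and Os04g0447100 had log2 changes of 1.72 and 1.30.

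Ethylene is made from ACC by ACC synthase and ACC oxidase, and 3 of 11 tested genes of these enzymes were higher, with a median of 0.60. The ACC oxidase gene Os02g0771600 stood at 4.78 and 5.09 FPKM in the NT libraries and 29.2 and 32.0 in the ROX libraries (log2 change 2.41, SE 0.07). It was also higher in both Set ROX libraries, at 19.0 and 31.5 FPKM in Set NT and 248 and 206 in Set ROX. ACC oxidase 1 (Os09g0451400) stood at 5.11 and 5.05 FPKM in the NT libraries and 16.4 and 17.9 in the ROX libraries, and ACC synthase 1 (Os03g0727600) at 0.163 and 0.237 FPKM in the NT libraries and 1.54 and 1.87 in the ROX libraries. In the Set libraries the groups overlapped for both of the latter.

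Auxin genes gave fewer calls: 4 of 114 tested members were higher and 1 was lower, a share of 3.51% higher that lies close to that of all genes. Os01g0768333, a SAUR gene of the early auxin response, stood at 1.49 and 1.04 FPKM in the NT libraries and 19.7 and 21.3 in the ROX libraries (log2 change 3.25, SE 0.11). Another SAUR gene, Os09g0545300, described as a negative regulator of auxin synthesis and transport, fell from 42.6 and 43.2 to 12.2 and 12.9 FPKM (log2 change -1.70, SE 0.05).

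Calcium sensors included many higher genes. Calmodulins and other EF-hand proteins bind calcium and pass the signal on, and 15 of 76 tested members were higher and none lower, with a median of 0.21. The 4 largest changes were all in genes of the study's lists. Os01g0135700 stood at 3.01 and 3.25 FPKM in the NT libraries and 82.2 and 92.3 in the ROX libraries (log2 change 4.41, SE 0.07), and Os05g0380900, similar to the pollen allergen polcalcin, at 10.2 and 8.88 FPKM in the NT libraries and 128 and 135 in the ROX libraries (log2 change 3.65, SE 0.07). The CCD1-like gene Os06g0683400 and the calmodulin-like gene Os01g0955100 had log2 changes of 3.64 and 2.79. Of the 15, 10 were on none of these lists. Of 52 tested calcium-dependent and CIPK kinases, 2 were higher and 1 was lower. The higher share, 3.85%, was near the 4.23% of all genes.

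**Figure D4:**
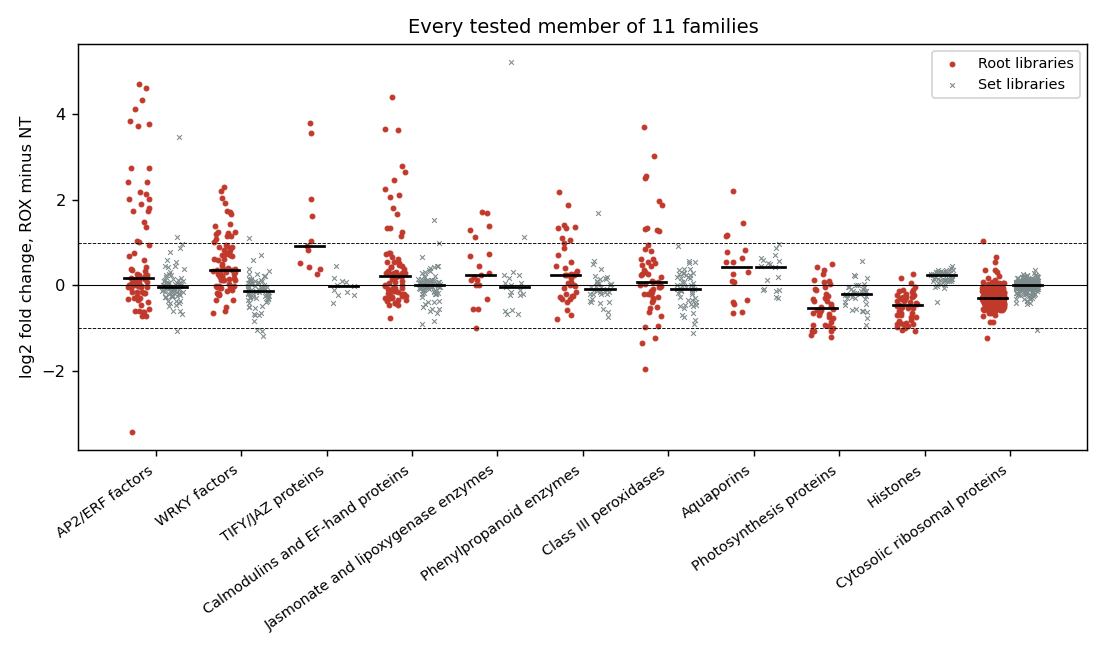
Log2 change (ROX minus NT) of every tested member of 11 families, as red circles in the Root and grey crosses in the Set libraries, with the family median as a black bar and the 2-fold limits as dashed lines. In the Root libraries the TIFY/JAZ points all lie above 0, and the histone and ribosomal protein points lie mostly below it. The Set medians of these 3 families are -0.02, 0.23 and 0.02.

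At the cell surface, 7 of 109 tested receptor-like kinases were higher and none lower, 6.42% higher against 4.23% of all genes. Os08g0255500, similar to the co-receptor BAK1, stood at 2.06 and 2.05 FPKM in the NT libraries and 10.7 and 10.1 in the ROX libraries (log2 change 1.90, SE 0.07) and was also higher in both Set ROX libraries, at 1.68 and 1.78 FPKM in Set NT and 8.95 and 8.63 in Set ROX. The SHR5-like gene Os08g0203201 had a log2 change of 1.47. RING and U-box proteins, which attach ubiquitin to their targets, had 18 of 304 tested members higher and 5 lower, shares of 5.92% and 1.64%. The network gene Os02g0682300 stood at 4.09 and 3.51 FPKM in the NT libraries and 63.1 and 65.6 in the ROX libraries (log2 change 3.77, SE 0.07). The U-box gene Os06g0248500 stood at 2.69 and 2.62 FPKM in the NT libraries and 30.5 and 35.2 in the ROX libraries (log2 change 3.21, SE 0.08). The family as a whole had a median of -0.04.

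Several groups of defence genes had higher members. Chitinases and glucanases cut the walls of fungi, and together with other pathogenesis-related genes 12 of 84 tested members were higher and 1 was lower, with a median of 0.19. The class III chitinase gene Os11g0701400 stood at 2.33 and 2.22 FPKM in the NT libraries and 14.7 and 13.9 in the ROX libraries (log2 change 2.22, SE 0.07), and chitinase 8 (Os10g0543400) at 3.68 and 4.97 FPKM in the NT libraries and 18.8 and 18.1 in the ROX libraries (log2 change 1.88, SE 0.11). None of these 12 was on the study's lists. Resistance genes of the NB-ARC class had 7 of 239 tested members higher and 2 lower, 2.93% higher, below the share of all genes. Heat shock proteins and factors had 1 of 80 tested members higher and none lower, 1.25% higher against 4.23% of all genes.

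Class III peroxidases, which crosslink wall polymers with hydrogen peroxide, had 10 of 53 tested members higher and 3 lower. The 4 largest changes lay in one tandem cluster on chromosome 6. Os06g0521400 stood at 2.90 and 2.97 FPKM in the NT libraries and 46.7 and 54.4 in the ROX libraries (log2 change 3.71, SE 0.08). Os06g0522300 stood at 7.82 and 7.11 FPKM in the NT libraries and 65.7 and 69.4 in the ROX libraries (log2 change 3.02, SE 0.06), and Os06g0521500 at 26.1 and 26.5 FPKM in the NT libraries and 147 and 161 in the ROX libraries (log2 change 2.50, SE 0.05). The fourth, Os06g0521900, had a log2 change of 2.57. In the Set libraries the 4 genes had log2 changes from -0.91 to -0.65, the opposite sign. The lower members included Os07g0639000, named above, which stood at 7.86 and 7.62 FPKM in the NT libraries and 1.31 and 1.18 in the ROX libraries.

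Phenylpropanoid enzymes, which turn phenylalanine into precursors of lignin and phenolics, had 8 of 39 tested members higher and none lower, with a median of 0.24. The entry enzyme phenylalanine ammonia-lyase (Os02g0626600) stood at 15.0 and 14.0 FPKM in the NT libraries and 54.6 and 57.9 in the ROX libraries (log2 change 1.89, SE 0.05). Genes of the next steps also rose, with log2 changes of 1.40 for a cinnamate 4-hydroxylase gene (Os02g0467600) and 1.36 for a 4-coumarate-CoA ligase gene (Os08g0448000). In the Set libraries Os02g0626600, Os02g0467600 and Os08g0448000 had log2 changes of -0.32, -0.39 and -0.03, and the family median was -0.09. Cinnamyl alcohol dehydrogenase 4 (Os11g0622800) stood at 8.81 and 7.72 FPKM in the NT libraries and 40.9 and 40.8 in the ROX libraries (log2 change 2.18, SE 0.07) and was also higher in both Set ROX libraries, at 47.3 and 76.5 FPKM in Set NT and 171 and 226 in Set ROX. None of the 8 was on the study's lists. Other genes overlap Os02g0626600, Os08g0448000 and Os11g0622800.

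Pectin is loosened or stiffened by esterases, their inhibitors and polygalacturonases, and 8 of 35 tested members of this family were higher and 1, Os10g0409400, was lower. The pectin methylesterase 8-like gene Os01g0311800 stood at 6.96 and 6.49 FPKM in the NT libraries and 31.9 and 32.6 in the ROX libraries (log2 change 2.11, SE 0.06). A pectinesterase inhibitor gene, Os06g0711800, stood at 28.5 and 26.3 FPKM in the NT libraries and 98.3 and 105 in the ROX libraries (log2 change 1.85, SE 0.05). The inhibitor gene Os12g0283400, a candidate of the study, rose as well, with a log2 change of 2.16. Genes described as arabinogalactan or fasciclin-like proteins of the growing wall lay mostly below 0, as did 15081 of all 25090 tested genes. None of the 20 tested members were higher, 1 was lower, and 16 had a log2 change below 0. The median of these members was -0.53 (-0.45 with scaling by median ratios). The lower one, the fasciclin gene Os01g0159200, stood at 4.84 and 3.31 FPKM in the NT libraries and 0.653 and 0.868 in the ROX libraries. Os06g0318800 and Os03g0188500, which the study's lists name as arabinogalactan protein genes, carry other descriptions (a non-protein coding transcript and a glutelin family protein) and are outside this family, and they are named here after their values were seen. Both were called higher: Os06g0318800 stood at 37.9 and 35.1 FPKM in the NT libraries and 266 and 274 in the ROX libraries (log2 change 2.85, SE 0.05), and Os03g0188500 at 12.2 and 12.7 FPKM in the NT libraries and 79.6 and 87.2 in the ROX libraries (log2 change 2.65, SE 0.06). Lipid transfer proteins, which carry lipids to the cell surface, had 5 of 31 tested members higher and 1 lower, and the abundant Os07g0290200 stood at 124 and 115 FPKM in the NT libraries and 419.8 and 446 in the ROX libraries (log2 change 1.85, SE 0.05).

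Genes for protective proteins and for the enzymes of protective sugars gave a few calls each, some at a high level. Of 26 tested LEA and dehydrin genes, which code for hydrophilic protective proteins, 5 were higher and 1 was lower. The summed level of all 48 genes of the family, tested or not, was 708 and 696 FPKM in NT and 1641 and 1730.4 in ROX. The dehydrin gene Os02g0669100, on the study's lists, took the largest part of the ROX sum, at 130.4 and 131 FPKM in the NT libraries and 594 and 617 in the ROX libraries (log2 change 2.21, SE 0.03). The LEA3 family gene Os01g0314800 stood at 35.3 and 29.4 FPKM in the NT libraries and 138 and 149 in the ROX libraries (log2 change 2.12, SE 0.08). Os09g0482300 and Os09g0482550 carried nearly the same values, so these 2 of the 5 carry 1 measurement. ASR proteins respond to abscisic acid and ripening, and ASR1 (Os02g0543000), on the study's lists, stood at 596 and 592 FPKM in the NT libraries and 1781 and 1864 in the ROX libraries (log2 change 1.62, SE 0.03). Os01g0963600, of the same ABA/WDS family, and the ASR1-like gene Os01g0959100 had log2 changes of 1.74 and 1.53, and the universal stress protein gene Os01g0875300 fell by 1.40 on the log2 scale.

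Raffinose sugars are made by galactinol synthase and raffinose synthase, and 2 of 4 tested genes with these words in their descriptions were higher, both of them candidates of the study. The galactinol synthase gene Os03g0316200 stood at 2.95 and 3.81 FPKM in the NT libraries and 30.2 and 31.3 in the ROX libraries (log2 change 2.87, SE 0.10), and in the Set libraries at 23.6 and 31.6 FPKM in Set NT and 87.0 and 65.9 in Set ROX. The raffinose synthase gene Os01g0170000 stood at 0.331 and 0.362 FPKM in the NT libraries and 5.49 and 4.92 in the ROX libraries (log2 change 2.20, SE 0.09). Os07g0687900 is described as the water stress protein WSI76 and is therefore outside this count, but the study's lists hold it as a galactinol synthase, and it is named here after its values were seen. It was also called higher, at 0.691 and 0.843 FPKM in the NT libraries and 8.12 and 8.73 in the ROX libraries (log2 change 2.42, SE 0.09), and stood at 4.09 and 4.52 FPKM in Set NT and 17.8 and 8.22 in Set ROX. Trehalose enzymes had 2 of 10 tested members higher, both trehalose-6-phosphate phosphatases and neither on the study's lists. Os02g0661100 stood at 10.3 and 9.82 FPKM in the NT libraries and 47.8 and 45.8 in the ROX libraries (log2 change 2.11, SE 0.05), and Os03g0386500 at 16.5 and 19.3 FPKM in the NT libraries and 56.9 and 61.6 in the ROX libraries.

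Water channels had 4 of 18 tested members higher and none lower, with a median log2 change of 0.42, and of 0.44 in the other set. The tonoplast channel gene Os02g0658100 (TIP2-like) stood at 24.7 and 24.1 FPKM in the NT libraries and 114 and 120.1 in the ROX libraries (log2 change 2.22, SE 0.04). At the plasma membrane, the PIP2-5-like gene Os07g0448400 stood at 12.9 and 10.5 FPKM in the NT libraries and 33.6 and 34.4 in the ROX libraries, and the PIP1.1-like gene Os04g0559700 at 110.4 and 119 FPKM in the NT libraries and 250.3 and 262 in the ROX libraries. All of these were much more abundant in the Set libraries, where Os02g0658100 stood at 588 and 1019 FPKM in Set NT and 1075 and 1279 in Set ROX. The summed level of all 26 genes of the family, tested or not, overlapped between the groups, at 3535 and 3468 FPKM in NT and 3395 and 3560.4 in ROX.

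Genes of low oxygen had 4 of 14 tested members higher and 1 lower. Hemoglobin 2 (Os03g0226200), a non-symbiotic plant hemoglobin, stood at 56.8 and 57.0 FPKM in the NT libraries and 153 and 159.6 in the ROX libraries (log2 change 1.44, SE 0.04). Alcohol dehydrogenase 1 (Os11g0210300), of ethanol fermentation, stood at 29.0 and 29.9 FPKM in the NT libraries and 78.2 and 78.0 in the ROX libraries (log2 change 1.38, SE 0.04). In the fit of 4 group means over all 8 libraries these 2 genes had an adjusted p of 0.0827 and 0.0700 from limma and were not called. Their Set values differed widely within a pair, Os03g0226200 standing at 867 and 379 FPKM in Set NT and 1306 and 377 in Set ROX.

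Metal-binding proteins with a heavy-metal-associated domain had 9 of 46 tested members higher and 1 lower. The neighbours Os02g0584800 and Os02g0584700 stood out: the former was at 9.18 and 8.54 FPKM in the NT libraries and 92.1 and 96.5 in the ROX libraries (log2 change 3.27, SE 0.05), the latter at 15.7 and 14.4 FPKM in the NT libraries and 143 and 147 in the ROX libraries (log2 change 3.18, SE 0.05). The network gene Os03g0152000 had a log2 change of 2.76. Iron and metal transport genes had 3 of 28 tested members higher, all nicotianamine synthases, and 1 lower. Nicotianamine carries iron inside the plant. NAS3 (Os07g0689600) stood at 7.83 and 7.12 FPKM in the NT libraries and 22.3 and 25.5 in the ROX libraries (log2 change 1.55, SE 0.08). It was also higher in both Set ROX libraries, at 10.2 and 16.8 FPKM in Set NT and 61.7 and 77.0 in Set ROX. NAS1 (Os03g0307300) stood at 1.2 and 1.09 FPKM in the NT libraries and 3.46 and 3.63 in the ROX libraries, far below its Set values of 775 and 1167 FPKM in Set NT and 1481 and 1666 in Set ROX. The root-specific metal transporter Os02g0131800 was the lower one, at 18 and 18.5 FPKM in the NT libraries and 7.35 and 7.65 in the ROX libraries.

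Genes of growth and of the shoot lay mostly below 0 with few calls, and 15081 of all 25090 tested genes also lay below 0. Of 296 tested ribosomal protein genes, 277 had a log2 change below 0, but only 1 was lower and 1 higher by the call, and the median was -0.30 (-0.21 with scaling by median ratios). The higher one, the L2-like gene Os10g0214132, stood at 0 and 0.449 FPKM in the NT libraries and 2.22 and 0.868 in the ROX libraries, and without the first NT or the first ROX library its log2 change was 0.76 or 0.63 and it was no longer called. The summed level of all 326 genes of the family, tested or not, was 26246 and 26113 FPKM in NT and 21701 and 21929 in ROX. Histone genes, most of them transcribed when DNA is copied, had a median of -0.47 over 48 tested members (-0.38 with scaling by median ratios), with 2 lower and none higher. Cyclins and DNA replication genes had a median of -0.24 over 68 members, and their only called member was PCNA (Os02g0805200), the sliding clamp of DNA polymerase. It stood at 25.0 and 23.8 FPKM in the NT libraries and 10.5 and 11.7 in the ROX libraries (log2 change -1.08, SE 0.06). Histone H2B.2 (Os08g0490900) stood at 37.6 and 37.7 FPKM in the NT libraries and 18.3 and 17.0 in the ROX libraries (log2 change -1.05, SE 0.05), and the histone H3 gene Os06g0159450 at 17.0 and 17.1 FPKM in the NT libraries and 7.34 and 7.86 in the ROX libraries. With scaling by median ratios these 3 genes had log2 changes from -0.99 to -0.97 and missed the 2-fold limit. In the Set libraries the histone median was 0.23, the opposite sign.

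Photosynthesis genes, which belong to green tissue, had 7 of 40 tested members lower and none higher, a share of 17.5% against 0.972% of all genes. Their median was -0.53. The Rubisco small subunit genes Os12g0274700 and Os12g0291100 stood at 5.22 and 5.36 and at 10.4 and 9.19 FPKM in NT, and at 1.74 and 1.72 and at 4.23 and 4.03 in ROX. The photosystem genes Os12g0420400 and Os01g0773700 had log2 changes of -1.15 and -1.07. Without single libraries these 2 and Os12g0291100 came to between -0.99 and -0.98 and were no longer called, and with scaling by median ratios Os01g0773700 and Os12g0291100 were lost too. All of these levels were low.

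The same contrast in the Set libraries, which share no library with the Root comparison, showed how many of the changes recur. Of the 1061 higher genes, 88 (8.29%) were at least 2-fold higher in Set ROX as well, 534 were above 0, and their median Set log2 change was 0.002. Those 88 were 49.2% of the 179 genes at least 2-fold higher in Set ROX among the 25090 tested. Genes below the level limit in the Root libraries are not in this count. Of the 244 lower genes, 32 (13.1%) were at least 2-fold lower in Set ROX, and their median was -0.23. Those 32 were 20.1% of the 159 genes at least 2-fold lower in Set ROX among the same tested genes. In limma's test of the difference between the 2 library sets, 5639 of 25090 genes (22.5%) had an adjusted p under 0.05, among them 917 of the 1061 higher and 170 of the 244 lower genes. The called genes were chosen for a large Root change, which is part of this difference. Their larger share is therefore built in by the choice. The test took a single residual variance per gene over all libraries, although the Set pairs varied more than the Root pairs. It did not match libraries by set number. Without one Root library the 5639 came down to 2649 (NT 1), 2651 (NT 2), 3001 (ROX 1) and 2982 (ROX 2).

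**Figure D5:**
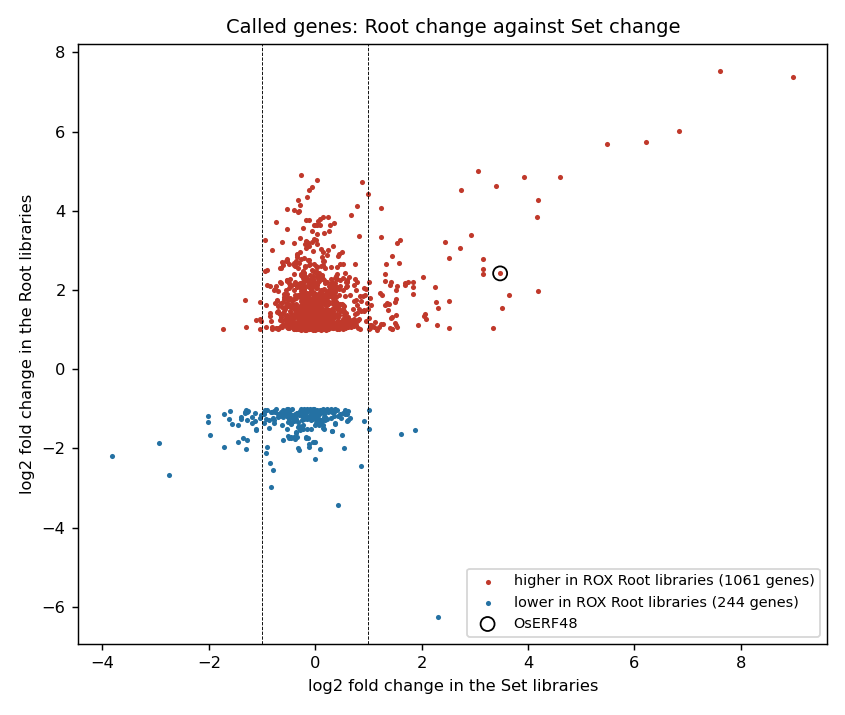
Log2 change in the Root libraries against log2 change in the Set libraries for the 1061 higher (red) and 244 lower (blue) genes, with OsERF48 circled and 2-fold Set changes as dashed lines. Most points lie between the dashed lines, and a smaller number, OsERF48 among them, lie beyond 2-fold in the same direction in both sets.

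The genes that moved at least 2-fold in both sets were chosen by these values and are a description. Of the 88 higher ones, 86 had both Set ROX above both Set NT libraries. The choice by a 2-fold Set change largely fixes this, and the share over all tested genes was not counted. Of the 88, 15 were on the study's lists and 50 were counted as without a function. That count takes in any gene with a hypothetical, unknown or cDNA clone entry, even beside a named function, as in Os02g0543000. Of 11 that rose at least 8-fold in both, 10 were counted so. The share of such genes among all tested genes was not counted, so these counts set no contrast. The largest, the hypothetical gene Os03g0115800 on chromosome 3, stood at 0.144 and 0.188 FPKM in the NT libraries and 216 and 211 in the ROX libraries, and at 0.167 and 0.397 FPKM in Set NT and 217 and 282 in Set ROX. Os07g0511400, also hypothetical, stood at 0.148 and 0.0434 FPKM in the NT libraries and 179 and 185 in the ROX libraries, and at 0.155 and 1.22 FPKM in Set NT and 659 and 1003 in Set ROX. Across both genes the highest NT value was 1.22 FPKM and the lowest ROX value 179 FPKM. With a function, besides OsERF48, Os11g0182900, the ACC oxidase, BAK1-like, cinnamyl alcohol dehydrogenase and galactinol synthase genes given above, the cyclic nucleotide-gated channel 14-like gene Os08g0254600 stood at 5.89 and 5.60 FPKM in the NT libraries and 39.2 and 36.6 in the ROX libraries, and at 3.34 and 2.18 FPKM in Set NT and 31.1 and 32.9 in Set ROX. The 88 lay on all chromosomes but chromosome 10, with 16 on chromosome 11 and 12 on chromosome 8. Of the 32 lower ones, 15 were counted as without a function, and Os05g0217700 and Os11g0194800, given above, had some of the largest falls.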

How the data were processed

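Roots of Oryza sativa cv. Ilmi were sequenced as mRNA in 8 libraries, of which the 4 Root libraries were analysed as 2 ROX against 2 NT. The deposited tables hold FPKM, computed by the authors for genes and for their transcripts on the IRGSP-1.0 genome per the submitters' processing notes. The aligner and the quantifier are not given in the sources used here, and although the library kit kept strand, its use in counting is not stated, so reads of overlapping or antisense genes may not have been told apart. Gene values equalled the sum of their transcripts. The tables also hold columns that match no sample here (4 in each), which were not used.

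Library pairs were compared for noise, and the depth per library was estimated from the smallest steps of low FPKM values of genes over 800 bases with 1 transcript, as an approximation. Genes with a mean of at least 0.5 FPKM over the 4 libraries were kept (25090 of 37869), without a step of normalization beyond FPKM. Values were tested as log2(FPKM + 1) with limma 3.58.1 (trend, 2-sided) in R 4.3.3, with Benjamini-Hochberg adjustment over all genes kept. A call needed 2-fold and an adjusted p under 0.05. The difference between the Root and the Set contrast was an interaction term over 8 libraries, with no term for set 1 or set 2. Counts, families and figures were made with Python 3.11.15 and pandas 2.3.3, and the fit was tested on simulated data.

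Genes joined families by the words of their descriptions, and a few search words were corrected after values had been seen. The members, families and gene lists were chosen with earlier results of these data known. The genes named were OsERF48, then, outside the study's candidate and network loci and with a described function, the 12 largest rises and 12 largest falls with separate groups and the 6 most abundant called genes per direction, and up to 4 called members with the largest change in each family described. Others are said to be chosen after their values were seen. A function was taken as described only where no entry of the gene read as hypothetical, unknown, non-coding or cDNA clone. Alternatives were a pseudocount of 0.1, a minimum of 5 FPKM or none, quantile or median-ratio scaling, limma without trend or with a 1.2-fold threshold (treat), unadjusted p, a replicate block, 4 group means over 8 libraries, transcript sums and each library left out. No gene sequences were used here.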

Additional observations from a re-analysis of the deposited data

Results flagged for a closer look

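A difference between the Root and the Set comparison (log2 change in Root minus log2 change in Set, limma adjusted p under 0.05) was found for 917 of the 1061 higher and 170 of the 244 lower genes. These genes, and those named below, were chosen by their Root change, which is part of the difference. Large differences among them are therefore partly built in by the choice. Line and library set cannot be told apart here, nor can any other way in which the 2 sets were made differently. OsERF48 itself (Os08g0408500) had a difference of -1.06, since its ratio was larger in the Set libraries.

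Among the rises, the difference was 4.59 for the amino acid transporter gene Os01g0597600, 4.58 and 3.57 for the F-box genes Os09g0341600 and Os09g0341500, and 4.5 for the RAP2.6-like gene Os09g0457900. It was 4.45 for the peroxidase gene Os06g0521400, 4.31 for the MYB gene Os01g0298400, 4.29 for the C2H2 gene Os03g0437200 and 3.95 for the DREB1H-like gene Os09g0522100. It came to 3.68 for the RAP2.6-like gene Os08g0474000, 3.25 for the peptidase gene Os10g0451900 and 1.96 for the ankyrin repeat gene Os11g0182900. In that last gene both sets changed the same way.

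Among the falls, the difference was -3.86 for the AP2 gene Os03g0183200, -2.52 for the glycine-rich protein gene Os10g0452500, -2.15 for the polygalacturonase beta subunit-like gene Os10g0409400 and -2.12 for the actin bundling gene Os04g0604000. It was -1.85 for the peroxidase gene Os07g0639000, -1.77 for the cytochrome P450 gene Os03g0417700 and -1.73 for the alcohol dehydrogenase-like gene Os11g0443700. For the methyltransferase gene Os11g0260100 it was -0.39. The BURP gene Os05g0217700 and the RPB10-like gene Os11g0194800 had positive differences, 1.63 and 1.07, because they fell further in the Set libraries.

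Among the abundant genes, the thionin-like genes Os07g0430501 and Os07g0432201 had differences of 2.38 and 1.7, the Lea14-A-like gene Os05g0584200 of 0.79 and the glycoside hydrolase gene Os06g0106800 of 0.7. The glutathione S-transferase gene Os01g0949800 had -1.22 and the octicosapeptide gene Os11g0444700 -0.91.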

How the results depend on the processing

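Over the alternatives run, the higher genes numbered between 750.0 (minimum of 5 FPKM) and 1469 (pseudocount of 0.1), against 1061. The lower genes, 244, moved more: a pseudocount of 0.1 gave 682, all 244 among them, and a minimum of 5 FPKM, with 15223 genes tested, gave 132. Scaling by median ratios gave 1169 higher and 193 lower genes, and it moved the median of all genes from -0.08 to -0.004 (log2). Without single libraries the higher genes ranged from 1013 to 1105 and the lower from 237 to 289. The difference between the library sets ranged from 2649 to 3001 genes without single libraries, where a group is left with 1 Root library that is assumed to vary like the others. OsERF48 had log2 changes between 2.37 and 2.51 throughout. Named genes kept direction in every alternative run, with 1998 values on the same side of the threshold and 21 that lost the call, among them 7 falls that came to between -1.0 and -0.93 with median-ratio scaling. Families with a larger share higher than all genes numbered from 32 to 39. Replicate numbers do not pair the Root libraries (correlation of deviations 0.024), and a replicate block there gave 1064 higher and 249 lower genes. Pairing of the Set libraries by their set number was not tested. Levels rest on depths of 37.4 to 43.4 M fragments, and 2 libraries a group, possibly technical, limit every p-value.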

Other observations

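Some gene groups outside the families above were picked after their values were seen, so their counts describe these libraries and carry no test. Thionins are small antimicrobial peptides. Of 6 tested, 5 were higher and none lower, with a median log2 change of 1.60 and a Set median of -0.08. The higher ones all lie close together on chromosome 7 and may share reads. V5/Tpx-1 allergen proteins, the class that holds the PR-1 defence proteins, had 7 of 13 tested members higher and none lower, with a median of 1.0 and a Set median of -0.18. The higher ones all lie in one stretch of chromosome 7, several with nearly the same values, and may share reads, so they are not separate measurements. Harpin-induced and VQ proteins, which in Arabidopsis take part in defence signalling, had 13 of 63 higher and 1 lower. Exo70 proteins, which tether secretory vesicles to the plasma membrane, had 4 of 25 higher and none lower.

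Cupredoxins, small copper proteins of the cell surface, had 7 of 32 tested members higher and 1 lower, while their median was -0.10. All these shares of higher genes exceeded the 4.23% of all genes. Of the 1061 higher genes, 446 were counted as without a function, and of the 244 lower genes 99, some of them with a function beside a hypothetical entry. The share over all tested genes was not counted. Of 5839 tested genes described as hypothetical, 5.09% were higher and 1.13% lower, and of 1238 non-coding transcripts 2.99% and 0.889%. Over all genes the shares were 4.23% and 0.972%. In 33 of the higher genes a Root NT library was listed at 0.

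The metallothionein-like gene Os12g0571100, whose class binds metals and is abundant in roots, took the highest level among the markers looked at, at 45168 and 45628 FPKM in the NT libraries and 33976 and 34105 in the ROX libraries, and at 20028 and 22322 FPKM in Set NT and 9800.2 and 28215 in Set ROX. Its Root groups did not overlap, while its Set values differed widely within the ROX pair.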
